A study of Mus musculus with 4 samples.

Results

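Macrophages are the resident phagocytes of the cochlea, and the genes described here are the ones by which such cells, and the related microglia of the brain, are usually recognised. They comprise the 9 genes Csf1r, Cx3cr1, Aif1, C1qa, C1qb, C1qc, Ptprc, Tyrobp and Fcer1g, chosen by name and not by their values. Earlier results of these data were known when the 9 genes were chosen. All 9 were present among the 23420 genes in each of the deposited tables. The question was how much RNA of these genes each sorted cochlear population held, and whether it changed in the first hours of gentamicin exposure.

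Cochleae of postnatal day 1 Atoh1-GFP mice on a CD1 background were kept in organ culture overnight and then left untreated or exposed to 0.5 mM gentamicin, an aminoglycoside antibiotic that is toxic to hair cells, for 3 h. Cells were dissociated and separated by flow cytometry into GFP-positive hair cells and GFP-negative cells, called non-hair cells, which gave 4 groups of 3 replicates: control hair cells, gentamicin-treated hair cells, control non-hair cells and gentamicin-treated non-hair cells. The animals of all 4 groups carried the reporter, in which an Atoh1 enhancer drives GFP, and cells of low GFP were gated out of the hair cell sort. The non-hair cells were therefore a mixture of supporting cells, other cochlear epithelium and surrounding tissue, and no sort for macrophages was made. Polyadenylated RNA was sequenced, and the authors deposited a normalized read number for each gene and replicate. These numbers have a minimum of 1, because 1 was added to each, and 1 read was worth 0.0351–0.0461 units on that scale.

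Macrophages depend on the receptor Csf1r, a tyrosine kinase that binds the growth factors Csf1 and Il34, and many of them carry Cx3cr1, the receptor for the membrane-bound chemokine Cx3cl1. Aif1, also called Iba1, is a calcium-binding protein of the macrophage actin cytoskeleton. C1qa, C1qb and C1qc encode the 3 chains that together form C1q, the recognition molecule of the classical complement pathway, which in many tissues is made chiefly by macrophages. Ptprc is CD45, the tyrosine phosphatase found on all nucleated blood cells. Tyrobp (DAP12) and Fcer1g are small adapters whose cytoplasmic motifs pass signals from surface receptors such as Trem2 and the Fc receptors to the kinase Syk.

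The 3 C1q genes are neighbours on the minus strand of chromosome 4 in the mm10 assembly: C1qb at 136880129–136886187, C1qc at 136889804–136893065 and C1qa at 136895917–136898803, with no other annotated gene overlapping any of them in GENCODE M21. The 250 bases before the RefSeq start of C1qb and of C1qc are shown because these adjacent genes, whose products occur in 1 complex, had different levels in hair cells. Both are given 5′ to 3′ on the minus strand of GRCm38.p6 (mm10), and capitals mark GAGGAA, the core to which the myeloid factor PU.1 binds, or TTCCTC, the same core on the other strand.
C1qb, chr4:136886201-136886450: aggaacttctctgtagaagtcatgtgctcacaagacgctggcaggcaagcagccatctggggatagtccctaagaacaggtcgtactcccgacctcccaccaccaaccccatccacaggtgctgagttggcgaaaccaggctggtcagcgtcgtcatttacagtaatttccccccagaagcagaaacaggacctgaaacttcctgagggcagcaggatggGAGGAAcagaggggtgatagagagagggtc
C1qc, chr4:136892915-136893164: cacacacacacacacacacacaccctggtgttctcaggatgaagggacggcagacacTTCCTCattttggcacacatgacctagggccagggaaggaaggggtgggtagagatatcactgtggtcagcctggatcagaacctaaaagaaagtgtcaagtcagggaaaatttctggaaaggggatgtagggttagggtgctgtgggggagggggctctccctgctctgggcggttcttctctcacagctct
Each window held 1 copy, which began 30 bases before the RefSeq start of C1qb and 193 bases before that of C1qc. The C1qc window lies partly within the GENCODE span of C1qc given above, and the C1qb window lies outside that of C1qb. The distances, and the contrast between them, therefore depend on which annotated start is used. Of the 9 genes, 6 had a window in the RefSeq table. The core occurred on either strand in windows of 4 of them, namely C1qb, C1qc, Aif1 and Ptprc (in 1 of its 2 windows). The 6 genes had 7 windows. Of all 32851 windows of the same length 23.3% held the core, a share of windows and not of genes. The level of the gene for PU.1 was not analysed here.

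All 9 genes were at their highest in non-hair cells. Among them the level was best compared per kilobase of exon, since the deposited numbers carry no division by length. On that scale, after the offset of 1 was taken off, control non-hair cells had 10.1 ± 2.83 (SD, n = 3) units per kilobase of C1qa, 7.72 ± 2.71 of C1qb and 4.54 ± 1.80 of C1qc. Both adapters lay in the same range, with 4.87 ± 0.933 for Fcer1g and 4.40 ± 1.34 for Tyrobp, and these 3 neighbours in the order (Fcer1g, C1qc and Tyrobp) did not differ beyond their spread. Lower levels were found for Csf1r (1.27 ± 0.422), Aif1 (0.911 ± 0.178) and Cx3cr1 (0.756 ± 0.269), whose replicates overlapped from 1 to the next. Ptprc was the lowest, at 0.128 ± 0.030, but its annotated exons sum to 18.3 kb over all transcripts, so its value per kilobase is a low estimate. The other lengths are also sums over all transcripts, so the order depends on them. C1qc was divided by 1.93 kb and C1qb by 1.09 kb, while their undivided means, offset included, were 9.76 and 9.40. Per kilobase, C1qa and C1qb had the highest means of the 9, and the receptors Csf1r and Cx3cr1 were far below C1qa.

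Csf1r lies on chromosome 18 (61100598–61132149, plus strand). Its normalized read numbers were 6.13, 10.9 and 7.91 in control non-hair cells and 1.30, 1.26 and 1.05 in control hair cells. The lowest non-hair cell replicate was well above the highest hair cell replicate. The log2 difference, hair cells minus non-hair cells, was -2.76 (standard error 0.23, limma adjusted p = 5.11e-07).

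Cx3cr1 is on the minus strand of chromosome 9 (119901616–120069879), and its annotated span overlaps 9 other genes, so that some reads could belong to either. It had 3.20, 5.62 and 4.40 in control non-hair cells and 1.27, 1.52 and 1.09 in control hair cells, with no overlap and -1.75 as the log2 difference (limma adjusted p = 0.000134). Aif1 (chromosome 17, 35170991–35176068) had the smallest log2 difference, with 2.41, 2.66 and 2.12 against 1.09, 1.04 and 1.09. Its hair cell replicates held only 1–2 reads each, and the log2 difference was -1.15 (standard error 0.11). The offset lowers this value for a gene of few reads: with it taken off, the means differed 18.9-fold for Aif1, against 6.61-fold for Ptprc and 3.18-fold for C1qb.

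On this scale, which includes the offset of 1, the complement chains C1qa and C1qc had the largest differences. C1qa had 9.18, 14.8 and 10.5 in control non-hair cells and 1.39, 1.51 and 1.14 in control hair cells, a log2 difference of -3.08 (standard error 0.23, limma adjusted p = 2.40e-07). C1qc had 7.08, 13.7 and 8.53 against 1.17, 1.26 and 1.05, a log2 difference of -3.02. With the offset taken off, the ratio of non-hair cell to hair cell means was 55.2 for C1qc, 36.2 for Csf1r and 30.3 for C1qa, so the order depended on the offset. In contrast, C1qb had 6.74, 12.6 and 8.88 in control non-hair cells and 4.0, 3.39 and 3.53 in control hair cells. The populations did not overlap for C1qb either, but its log2 difference was only -1.32 (standard error 0.22, limma adjusted p = 0.000186).

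Ptprc (chromosome 1, 138062861–138175708), which overlaps A130071D04Rik, had 2.94, 3.97 and 3.12 in control non-hair cells and 1.35, 1.26 and 1.46 in control hair cells, and Tyrobp (chromosome 7, 30413760–30417585) had 3.11, 4.88 and 3.82 against 1.17, 1.09 and 1.05. For Fcer1g (chromosome 1, 171229572–171234365) the numbers were 4.55, 6.15 and 5.05 against 1.09, 1.13 and 1.28. The log2 differences were -1.29 for Ptprc, -1.81 for Tyrobp and -2.17 for Fcer1g, the last with the smallest adjusted p of the 9 (3.77e-08, limma).

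Hence 9 of 9 genes were lower in control hair cells at an adjusted p under 0.05, and none overlapped between the populations. Across the 16088 genes tested, 42.1% were lower at that threshold and 44.6% were lower without overlap. The count carries little weight by itself, because a gene was tested once it had 100 reads over the 12 replicates: in the 6 hair cell replicates, only C1qb of the 9 reached 100 reads, and the others entered through the non-hair cells. In such sorted bulk samples, fewer macrophages and less RNA per macrophage cannot be told apart.

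**Figure D1:**
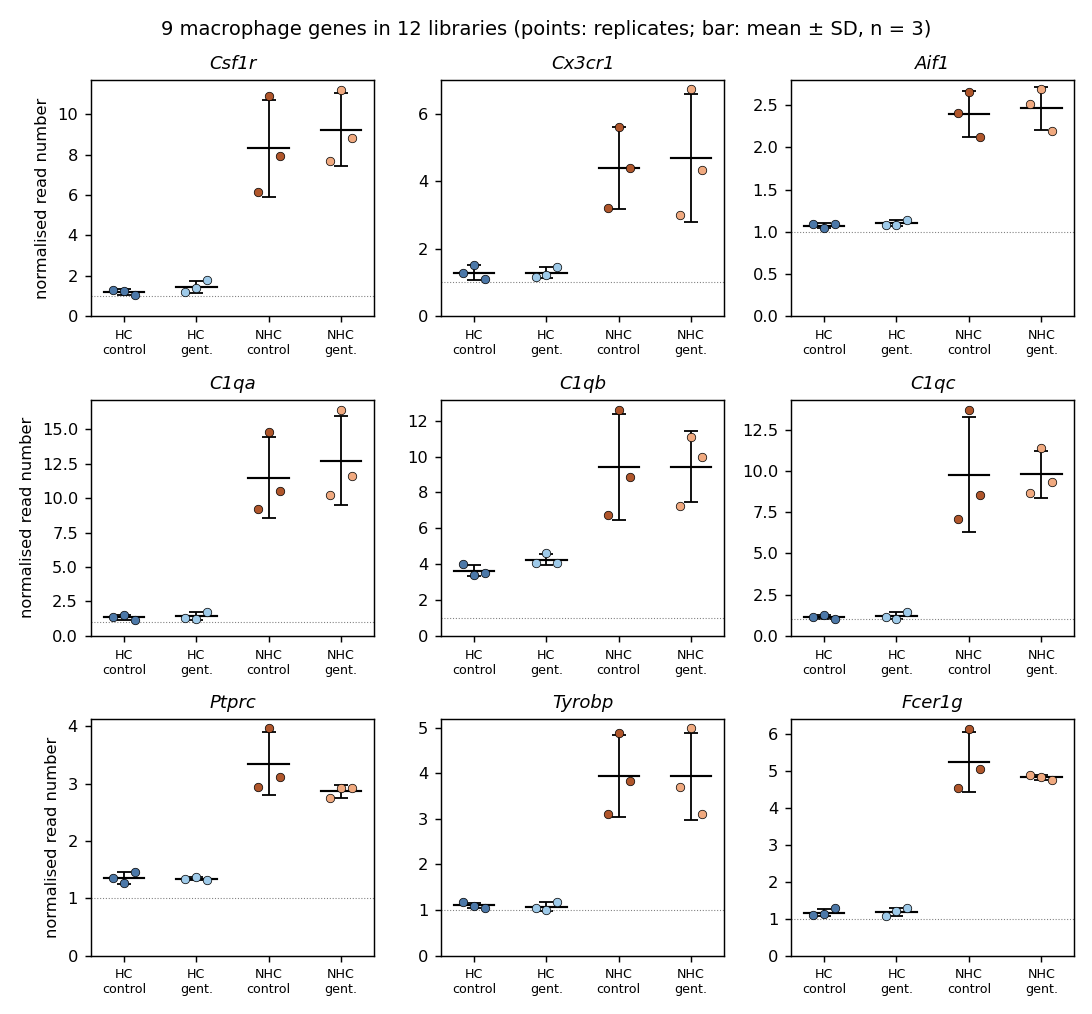
Normalized read number (vertical axis, starting at 0, with the minimum of 1 dotted) of each of the 9 genes in the 3 replicates of control and gentamicin-treated (gent.) hair cells (HC) and non-hair cells (NHC); horizontal bars and whiskers are mean ± SD. In every panel the non-hair cell points lie above the hair cell points, control and gentamicin points lie at similar heights, and C1qb has the highest hair cell points, at 3.39–4.60.

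The label of the group was checked against other genes. Of 28 macrophage surface receptor genes in the files, 22 were tested and 20 were lower in control hair cells, among them Emr1 (the antigen F4/80; log2 difference -3.00), Cd14 (-2.91), Mrc1 (-2.30), Itgb2 (-2.09) and Itgam (-1.84). The 5 genes had means of 4.31–10.3 in control non-hair cells. The count carries as little weight as that of the 9, since 13 of the 20 genes, these 5 included (18–48 reads), had under 100 reads over the 6 hair cell replicates and were tested through the non-hair cells. Lyz2, the macrophage and granulocyte lysozyme, had 10.6, 22.8 and 14.7 in control non-hair cells, and Trem2, a receptor that signals through Tyrobp, had 3.52, 6.15 and 4.82. Genes enriched in microglia of the brain were divided. Of the 11 in the files, 7 had fewer reads than Csf1r (554) over the 3 control non-hair cell replicates, from 2 for Siglech, 11 for Gpr34, 19 for P2ry13 and 32 for P2ry12 up to 173 for Fcrls. The other 4 (Tmem119, Hpgds, Olfml3 and Sparc) had more, and Sparc, a matrix protein of connective tissue, had 222773. Tmem119, which bone and connective tissue cells also express, had 26.7, 18.9 and 15.2, and Hpgds, a prostaglandin D synthase of several cell types, had 17.5, 13.6 and 9.46. Olfml3 of the same list (382 ± 6.45 in control hair cells against 101 ± 16.3 in control non-hair cells) and the microglial transcription factor Sall1 (238 ± 13.7 against 60.8 ± 14.4) were higher in hair cells. The microglia list thus gave no single answer, and the 9 genes are called macrophage genes from here on.

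Markers of other blood cells were compared as sums over genes. T and NK cell markers (10 genes) summed to 10.6–10.9 units above the offset in control non-hair cells and B cell markers (6 genes) to 1.21–1.72, against 36.3–66.3 for the 9 macrophage genes. The B cell sum was higher in control hair cells, at 3.84–4.49. The 5 erythroid markers in the files summed to 35.1 in the first control non-hair cell replicate, close to its 36.3 for the macrophage genes, and to 2.55 and 4.47 in the other replicates. Neutrophil markers (9 genes) summed to 11.5–13.3 in control non-hair cells and to 8.38–12.2 in control hair cells, so this sum was about as high in hair cells. Cxcr2 made up much of it, with normalized read numbers of 7.65, 8.37 and 10.7 in control hair cells. In control non-hair cells Cxcr2 had 6.4, 8.12 and 8.03. The 8 mast cell markers summed to 63.9–79.1 in control non-hair cells and 111–120 in control hair cells, and Kit was the gene among them that was higher in hair cells. Kit made up nearly all of both sums. Its normalized read numbers were 74.4, 77.3 and 63.1 in control non-hair cells and 117, 120 and 112 in control hair cells.

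The hair cell replicates held small numbers of reads of most of the 9 genes. Expressed as a percentage of the mean level in control non-hair cells, with the offset taken off, control hair cells had 1.81% of C1qc, 2.76% of Csf1r, 3.30% of C1qa, 3.47% of Tyrobp, 3.85% of Fcer1g, 5.29% of Aif1, 8.55% of Cx3cr1, 15.1% of Ptprc and 31.5% of C1qb. Over the 6 hair cell replicates, C1qb had 426 reads, and the other 8 genes had 13–57 each. Tyrobp had 0 reads in 1 gentamicin-treated hair cell replicate, a count that allows up to 3 reads or a normalized read number of 1.13.

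Genes used as markers of other cell types also had reads in the hair cell samples. The 8 endothelial markers summed to 6.20% and the 8 mesenchyme markers to 9.52% of their non-hair cell level in control hair cells, and the 8 macrophage genes other than C1qb summed to 4.14%. With gentamicin the corresponding values were 2.62%, 5.18% and 4.90%. Single endothelial markers ranged from 2.48% to 10.3% in control cells. C1qb, at 31.5% in control and 38.3% in gentamicin-treated samples, was above each of the 8 endothelial markers. It did not stand above all lists: in control cells 1 of 8 mesenchyme markers (81.0%), 3 of 6 Schwann and glial markers, 7 of 8 supporting cell markers and 7 of 28 macrophage surface receptors had a higher percentage than C1qb. The sums of those last 3 lists were 36.7%, 126% and 21.0% of their non-hair cell level. What part of the hair cell reads came from other cells was not tested.

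**Figure D2:**
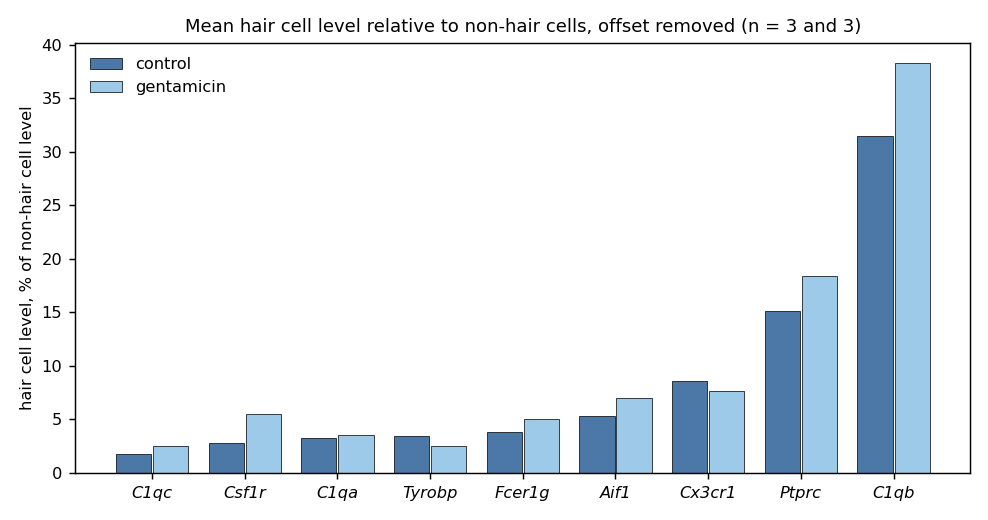
Mean level in hair cells as a percentage of the mean level in non-hair cells (vertical axis, from 0), offset removed, for each gene in control and gentamicin-treated samples; each bar is a ratio of means of 3 and 3 replicates, without error bars. C1qb stands at 31.5% and 38.3%, and the other 8 genes lie between 1.81% and 18.4%.

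The C1q chains had a different composition in the 2 populations. In non-hair cells C1qa had the largest share of the reads on the 3 genes in each of the 6 replicates (36.3–42.9%), and C1qb made up 28.7%, 30.4% and 31.6% in the control replicates and 26.9%, 28.1% and 32.3% after gentamicin. In hair cells it made up 84.1%, 75.7% and 93.2% in the control replicates and 87.1%, 93.5% and 71.7% after gentamicin. The lowest hair cell share, 71.7%, was 86 of 120 reads with an exact 95% binomial interval of 62.7–79.5%, and the highest non-hair cell share, 32.3%, was 257 of 795 reads with an interval of 29.1–35.7%. These intervals cover counting error only. Summed over 6 replicates, C1qb had 426 of 512 reads in hair cells and 1327 of 4459 in non-hair cells.

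Hair cell C1qb reads also varied little between replicates, with 69, 56 and 55 in control and 74, 86 and 86 in gentamicin-treated samples, whereas C1qa reads were 9, 12 and 3 and then 7, 5 and 21. The pattern was noticed in these values and is given without a test. No annotated gene lies within 3617 bases of C1qb on either side, and reads outside the annotated exons were not analysed here.

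**Figure D3:**
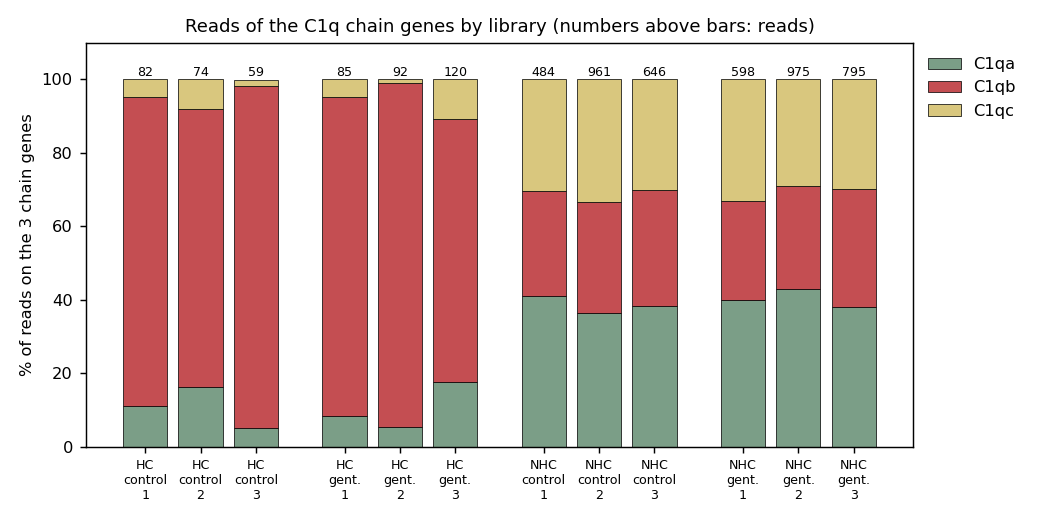
Share of reads on C1qa, C1qb and C1qc (stacked bars, percent of the reads on the 3 genes) in each of the 12 replicates, with the number of reads above each bar. C1qb takes 71.7–93.5% in the 6 hair cell replicates and 26.9–32.3% in the 6 non-hair cell replicates.

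No change with gentamicin was called in hair cells for any of the 9 genes. A change was called where the unadjusted p was under 0.01 and the fold change exceeded 1.2, a rule that 27.5% of the 16088 genes met. None reached an unadjusted p under 0.05 in limma either. The log2 differences ran from -0.04 for Tyrobp to 0.26 for Csf1r, with a median of 0.04, against a median of -0.09 over all genes tested. In the 8 genes with 13–57 reads over the 6 hair cell replicates, small changes were not detectable at this depth.

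Csf1r had 1.21, 1.38 and 1.78 in gentamicin-treated hair cells, which overlapped the control replicates. C1qb, the only gene with appreciable counts, had 4.05, 4.60 and 4.07, and all 3 replicates lay just above the highest control replicate (4.0). Its log2 difference was 0.22 (standard error 0.22, limma adjusted p = 0.476), and 21.7% of all genes tested were higher without overlap. That standard error pools the spread of all 4 groups, and C1qb varied more between the non-hair cell replicates. In a limma fit of the 2 hair cell groups alone, C1qb had an unadjusted p of 0.144 and was not called. The other 7 genes had 1.00–1.75 with gentamicin and 1.04–1.52 without.

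The third gentamicin-treated hair cell replicate stood apart. It was the highest of its group for 7 of the 9 genes, and the 8 genes other than C1qb had 95 reads in it against 33 and 36 in the other replicates and 26–48 in the control ones. The sum of these 8 genes above the offset was 3.39 there against 1.36 and 1.51. Endothelial markers did not share this order, with sums of 9.15, 15.7 and 11.2 over the same 3 replicates, while mesenchyme markers had 370, 431 and 452. Lyz2 had 1.44, 1.25 and 2.76, so it too was highest in the third. Without that replicate the log2 differences of the 9 genes ran from -0.11 to 0.25 and still none met the rule.

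In non-hair cells, where the genes were well measured, none of the 9 met the rule either, and 5.45% of all genes did. None had an unadjusted p under 0.05 in limma. Csf1r had 7.68, 11.2 and 8.84 after gentamicin and Cx3cr1 had 3.01, 6.74 and 4.34, with log2 differences of 0.17 (standard error 0.23) and 0.05 (standard error 0.28). The treated and control replicates of both receptors overlapped. Aif1, with 2.51, 2.69 and 2.19, differed by 0.04 (standard error 0.11).

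The complement chains had values close to those of the controls as well. C1qa had 10.2, 16.4 and 11.6, C1qb had 7.22, 11.1 and 10, and C1qc had 8.65, 11.4 and 9.33 after gentamicin. Their log2 differences were 0.15, 0.03 and 0.05, each smaller than its standard error of 0.22–0.23. The adapters Tyrobp (3.70, 4.98 and 3.11) and Fcer1g (4.90, 4.83 and 4.76) differed by -0.01 and -0.11.

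Ptprc had the difference of largest size, with 2.74, 2.92 and 2.93 after gentamicin against 2.94, 3.97 and 3.12 before, so that all 3 treated replicates lay below the lowest control. The gap was very small, 7.68% of all genes tested were lower without overlap, and the log2 difference of -0.21 (standard error 0.12, limma adjusted p = 0.392) did not pass.

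The response of hair cells minus that of non-hair cells ran from -0.08 for C1qa to 0.20 for Ptprc, and 0 of 9 genes passed at a limma adjusted p under 0.05, with 0 at an unadjusted p under 0.05, against 13.4% of all genes tested. A p-value that misses the threshold does not show that the 2 populations, or treated and control cells, were alike.

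**Figure D4:**
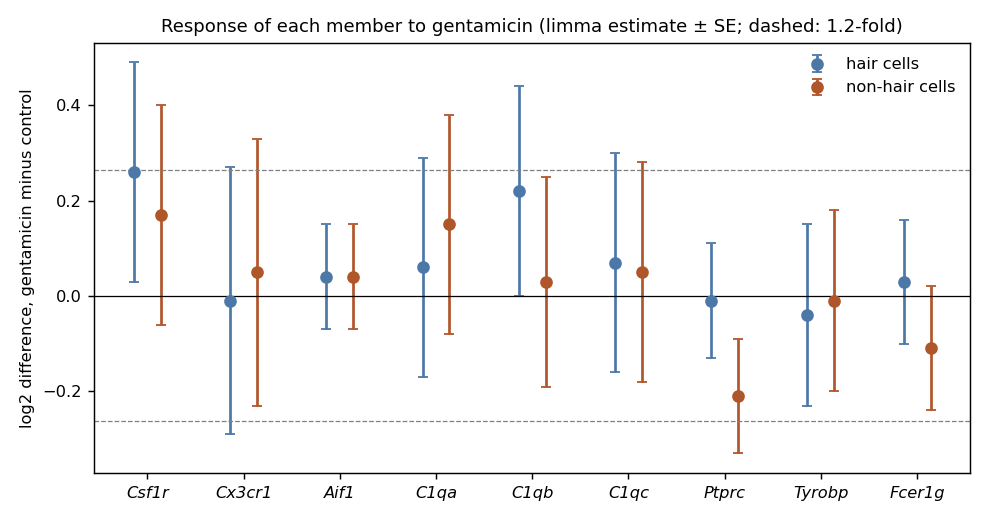
Log2 difference, gentamicin minus control (vertical axis), of each gene in hair cells and non-hair cells, as limma estimate ± standard error, with dashed lines at a 1.2-fold change. The estimates lie between -0.21 and 0.26 and none met the rule for a change.

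The 9 genes varied together between the non-hair cell replicates. The second control replicate was the highest of its group for 9 of 9 genes, and the first was the lowest for 8 of 9. The second gentamicin-treated replicate was the highest for 7 of 9. Summed above the offset, the genes had 36.3, 66.3 and 45.4 in the control and 41.7, 63.3 and 48.1 in the gentamicin-treated replicates, so the replicates of each group differed from each other by more than the group means did. Without the second control replicate the log2 differences with gentamicin in non-hair cells had a median of 0.25 (-0.08 to 0.39), and without the second gentamicin-treated replicate a median of -0.10 (-0.25 to 0.03), with 0 genes meeting the rule in either case. Over the 6 non-hair cell replicates, with group means taken off, Csf1r had the highest correlation with the mean of the other 8 genes (r = 0.99) and Aif1 the lowest (r = 0.54). In hair cells the same value was 0.96 for Csf1r but -0.23 for C1qb and -0.55 for Ptprc. These correlations describe 6 libraries whose points share depth and composition.

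Over all 12 libraries, again with group means removed, the genes most like the mean of the 9 were Cd36, a scavenger receptor (r = 0.970), Laptm5, a lysosomal membrane protein of blood cells (0.962), Gpr37l1 (0.959), H2-M5 (0.952), Nrxn2 (0.942), Tbc1d16 and Pip4k2b (0.939 each), Rtn4r (0.933), and Pld4 and Fcrls (0.932 each). Cd36, Gpr37l1, Pld4 and Fcrls were, like the 9 genes, higher in non-hair cells. Their means were 5.17, 4.04, 4.29 and 3.28 in control non-hair cells and 1.10, 1.48, 1.23 and 1.12 in control hair cells. H2-M5 had means of 2.05 and 1.63, a log2 difference of -0.31 that did not pass (limma adjusted p = 0.081). By contrast, 5 of the 10 (Laptm5, Nrxn2, Tbc1d16, Pip4k2b and Rtn4r) were higher in control hair cells than in control non-hair cells. The 10 were picked as the highest correlations among many genes, and how often such values arise by chance was not tested.

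The ligands of the receptors were also found mainly in the non-hair cells. Csf1 had 72.2, 61.2 and 60.5 in control non-hair cells and 3.17, 3.52 and 3.17 in control hair cells, a log2 difference of -4.29 (limma adjusted p = 7.97e-11). Il34 had 5.42, 5.20 and 4.86 against 1.30, 1.47 and 1.14, and Cx3cl1 had 108, 90.6 and 69.7 against 7.99, 9.85 and 8.97. With gentamicin Csf1 fell in hair cells to 2.15, 2.34 and 2.50 (log2 difference -0.50, limma adjusted p = 0.00974), a change at a low level. In non-hair cells none of the 3 ligands met the rule, and Csf1 had 59.3, 71.6 and 58.7. The difference between the responses of Csf1 did not pass (-0.46, limma adjusted p = 0.0945).

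Among the genes that act with the 9, Cd68 behaved differently. Cd68, a glycoprotein of macrophage lysosomes that other cells also express, is on chromosome 11 (69664213–69666153), 783 bases from the nearest other annotated gene. It had 2.13, 2.84 and 2.34 in control hair cells and 13.7, 17.9 and 10.9 after gentamicin, an increase in all 3 replicates with a log2 difference of 2.52 (standard error 0.22, limma adjusted p = 3.81e-05). In non-hair cells it had 7.65, 12.5 and 10.1 without and 8.50, 7.70 and 9.58 with the drug, and the difference between the responses was 2.73 (standard error 0.31, limma adjusted p = 0.000885). Gentamicin-treated hair cells therefore had 988 reads of Cd68 over 3 replicates, while Csf1r had 36 and Ptprc 26 in the same libraries.

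Laptm5 was another gene of blood cells that was not distributed like the 9. It had 107, 118 and 105 in control hair cells and 9.10, 15.3 and 10.1 in control non-hair cells, which is 3.29 on the log2 scale (standard error 0.19). With gentamicin the hair cell values were 71.8, 71.4 and 78.7, all below the controls, but the log2 difference of -0.57 missed the rule (unadjusted p = 0.0116 in limma); it met the rule under a replicate block and in a fit of the 2 hair cell groups alone. Ikzf1, a lymphoid and myeloid transcription factor named after its values were seen, had 6.56, 7.07 and 7.22 in control hair cells and 1.66, 2.07 and 2.20 in control non-hair cells.

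The remaining genes of macrophage function were taken from lists. Of 28 surface receptors, 22 were tested: in hair cells Cd68 rose and P2ry6 fell, and in non-hair cells 0 met the rule in limma (1 had an unadjusted p under 0.05). Of all genes tested, 12.7% rose and 14.8% fell in hair cells. Of the 17 tested genes of receptor signaling through Tyrobp and Fcer1g, 3 rose in hair cells (Fcgr1, Plcg2 and Pik3cg) and Syk fell. Plcg2, the phospholipase downstream of Syk, went from 3.87, 3.91 and 4.04 to 4.55, 5.90 and 5.24 in hair cells (log2 difference 0.40), a call that was lost in 10 of 13 alternative fits. Without the second control hair cell replicate the call of Pik3cg (0.71) was lost, as were those of C4b (-0.63), Lcp1 (-0.42), Cxcl16 (0.49) and Csf3r (-0.47) named further on, and each was also lost without at least 1 other replicate. Of 13 tested complement genes other than C1q, C4b, Cd93 and Calr fell in hair cells, and in non-hair cells 0 met the rule in limma (1 had an unadjusted p under 0.05). The call of Cd93 was lost without the second control replicate (-0.88) or the first treated replicate (-0.84). Calr, a chaperone of the endoplasmic reticulum in every cell, fell by 0.51 on the log2 scale in hair cells.

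Of 9 tested transcription factors of macrophages, Maf and Runx1 fell in hair cells and Cebpb fell in non-hair cells. Cebpb, a factor of myeloid and inflammatory genes that many other cells also express, had 264, 228 and 194 in control and 119, 104 and 138 in gentamicin-treated non-hair cells (log2 difference -0.93, limma adjusted p = 0.0301). In hair cells it had 27.0, 31.8 and 24.6 and then 29.7, 33.8 and 28.2. Maf in hair cells went from 6.13, 11.9 and 6.95 to 4.32, 4.37 and 5.58, with a log2 difference of -0.75; without the second control replicate this was -0.47 and no longer met the rule.

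Of 17 lysosomal and oxidase genes of phagocytes, the lysosomal proteases Ctsb (log2 difference -0.52) and Ctsd (-0.42) fell in hair cells, and in non-hair cells 0 met the rule in limma, with 0 at an unadjusted p under 0.05. Of 14 tested leukocyte genes of the cytoskeleton and signaling, Fermt3 rose and Lcp1 fell in hair cells, and in non-hair cells 0 met the rule in limma (1 had an unadjusted p under 0.05). Of 7 tested microglia-enriched genes, Olfml3 rose in non-hair cells, from 90.5, 93.1 and 120 to 126, 131 and 136, a call that was lost when only the non-hair cell groups were fitted.

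Secreted factors and antigen presentation were the lists with the most changes in non-hair cells. Of 14 tested secreted factors, Tnf, Ccl2, Ccl3 and Ccl4, an inflammatory cytokine and 3 chemokines, were lower after gentamicin, with log2 differences of -0.54, -1.02, -0.62 and -0.57, against 2.26% of all genes called lower. Ccl2 had 35.3, 21.1 and 51.0 without and 13.8, 14.5 and 22.8 with the drug, and Ccl3 had 2.82, 5.04 and 3.74 and then 2.12, 2.36 and 2.90, so in both the groups overlapped. Of 7 tested antigen presentation genes, H2-Aa, H2-Ab1 and H2-Eb1, which encode class II chains, were higher, with log2 differences of 0.76, 0.71 and 0.69, against 3.18% of all genes called higher. H2-Aa had 2.90, 1.95 and 2.04 without and 4.40, 4.43 and 2.90 with the drug.

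These 7 genes were named after their values were seen. Their limma adjusted p-values were 0.0936–0.136, and each call was lost both with an offset of 0.1 and when only the non-hair cell groups were fitted; of the 7, only H2-Aa kept the call whichever single replicate was left out. In the same replicates the 9 macrophage genes had log2 differences of -0.21 to 0.17. In hair cells, of the secreted factors, Spp1 fell from 26.2, 86.0 and 32.7 to 8.50, 10.7 and 11.4, Apoe fell from 29.1, 50.5 and 33.6 to 22.4, 20.2 and 22.6, and Cxcl16 rose.

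Some markers of other cells were also called lower with the drug in the hair cell samples. Of all genes tested, 14.8% were called lower there, and the count of endothelial markers did not exceed that share. The lists are short, and their counts were not tested against it. Of 8 mesenchyme markers Col1a2, Col3a1, Pdgfrb and Dcn fell in hair cells, with log2 differences of -1.18, -1.33, -1.38 and -0.69, as did Cdh5 (-0.87) of 8 endothelial markers, Sox10 (-0.84) and Mbp (-0.47) of 6 Schwann and glial markers, Hes5 (-2.02) and Gjb2 (-0.77) of 8 supporting cell markers, and Cxcr2 (-0.62) and Csf3r of 3 tested neutrophil markers. Camp, the third tested neutrophil marker, differed by -0.04. Over the 3 control hair cell replicates the neutrophil markers S100a8 and S100a9 had 2 reads each, and Elane and Mpo had 0. Pdgfrb, Hes5 and Cxcr2 kept the call whichever hair cell replicate was left out. Without the second control replicate the call was lost for Col1a2 (-0.73), Dcn (-0.56), Cdh5 (-0.74), Sox10 (-0.75) and Mbp (-0.36), without the first treated replicate for Col3a1 (-1.07), and without the second treated replicate for Gjb2 (-0.45), and most of these were also lost without at least 1 other replicate. The second control hair cell replicate had the most of several of these, with Col3a1 at 213 against 80.8 and 79.8. In the same contrast the 8 macrophage genes other than C1qb had 26–48 reads in the control replicates and 33, 36 and 95 in the treated ones. In non-hair cells Cldn5, an endothelial tight junction protein, rose from 27.6, 29.6 and 37.7 to 59.9, 56.3 and 93.7. The part of these changes in the values of the macrophage genes was not tested.

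**Figure D5:**
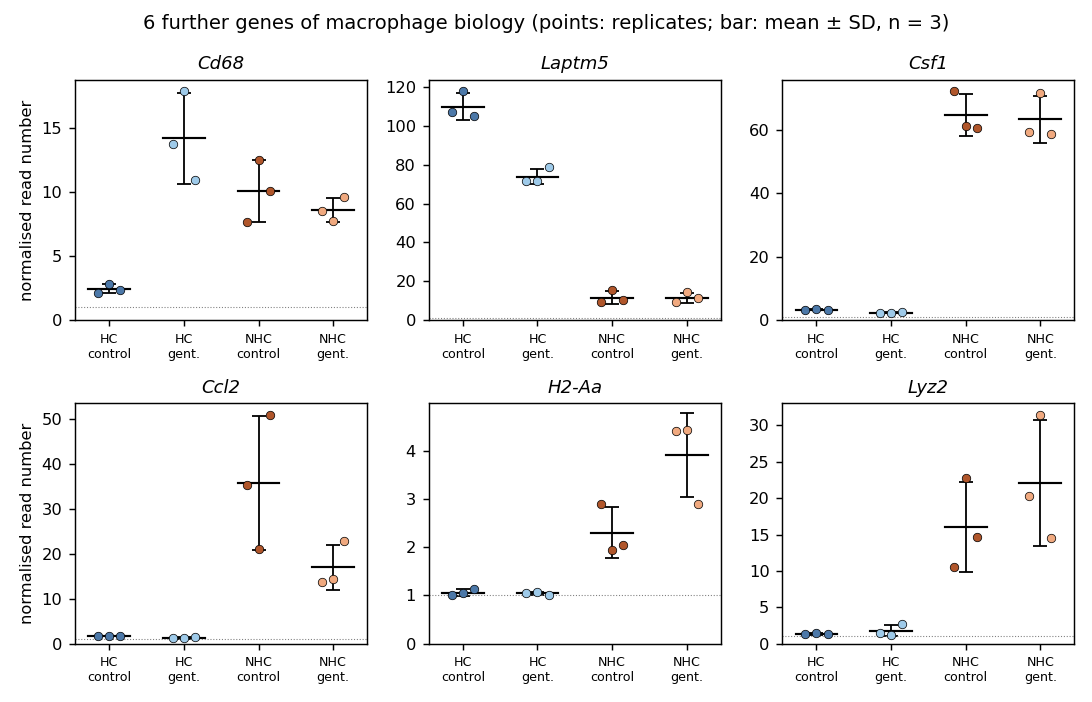
Normalized read number (vertical axis, from 0, with the minimum of 1 dotted) of Cd68, Laptm5, Csf1, Ccl2, H2-Aa and Lyz2 in the 3 replicates of each group; bars and whiskers are mean ± SD. Cd68 is at 10.9–17.9 in gentamicin-treated hair cells and 2.13–2.84 in control hair cells, Laptm5 is highest in control hair cells (105–118), and the other 4 genes are near the minimum in hair cells.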

How the data were processed

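The authors aligned 50 bp single-end reads of 12 replicates to mm10 with TopHat 2, as the submitters' processing notes also state. The deposited values are treated as a score per gene: reads scaled per replicate with 1 added. The paper describes division by gene length (RPKM), but the deposited scores show none. After subtraction of 1, values were divided by the worth of 1 read in each replicate. That worth was taken as the most frequent value above 0 and refined on higher values. Of values under 30 reads, 75.1–76.3% were then whole within 0.02, so no count model was used. Recovered reads on genes numbered 22400691–28152296 per replicate. Replicate numbers are those of the column headers.

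Log2 scores of the 16088 genes with at least 100 recovered reads over 12 replicates entered limma (version 3.58.1, R 4.3.3), with 4 groups in 1 model, a variance trend and two-sided tests. Drug contrasts were called where the unadjusted p was under 0.01 and the fold change exceeded 1.2, and the other contrasts at a Benjamini-Hochberg adjusted p under 0.05 over all genes tested. P-values rest on the spread between replicates, pooled over all 4 groups for each gene. The procedure was tested on simulated data. Tables and figures were made with Python 3.11.15, pandas 2.3.3, numpy 2.4.6, scipy 1.17.1 and matplotlib 3.10.9. Promoter windows are from RefSeq (GRCm38.p6) and positions and exon lengths from GENCODE M21.

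The 9 genes and all lists were chosen with earlier results of these data known. The naming rule took the 9 genes, 3 ligands and a set of macrophage genes whatever they did, up to 4 genes per list with the largest drug response that met the call rule, had a mean score of at least 5 and no overlap between replicates, and the 10 genes most correlated with the 9. Other genes named from the lists were named after their values were seen. A result of the receptor signaling list in non-hair cells is not reported here. Deviations of same-numbered control hair cell and non-hair cell replicates correlated at 0.216, 0.316 and 0.200. Within populations the correlations were 0.0367, 0.0522 and 0.0369 in hair cells and 0.208, -0.232 and 0.683 in non-hair cells. Replicates of different number were not correlated, so these values cannot show whether the numbers pair samples. The main fit did not pair replicates, and the replicate block changed no call of the 9 genes. Alternatives were 2 other scalings, a smaller offset (0.1), read minimums of 1000 and 0, the block, separate fits of each pair of groups, omission of single replicates, and other call thresholds.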

Additional observations from a re-analysis of the deposited data

Results flagged for a closer look

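The 9 macrophage genes and the other genes named make 74 tested genes. Of these, 10 had a gentamicin response that differed between hair cells and non-hair cells in limma's interaction test at an adjusted p under 0.05. None of the 10 was one of the 9. Of all 16088 genes tested, 13.4% passed the same threshold, so the count was near the share over all genes. Many of the other genes had been named for a large drug response or after their values were seen. The response of hair cells minus that of non-hair cells, on the log2 scale, was 2.73 for Cd68 (adjusted p = 0.000885), 1.06 for Cebpb (adjusted p = 0.00735) and -0.51 for Tbc1d16. It was 0.98 for Fcgr1 (adjusted p = 0.0225), 0.78 for Fermt3 (adjusted p = 0.0184) and -1.20 for C4b (adjusted p = 0.0292). It was -0.84 for Apoe (adjusted p = 0.0409), -1.11 for Cldn5, -1.51 for Pdgfrb and -0.84 for Dcn (adjusted p = 0.0449). Cd68, Cebpb, Tbc1d16 and Fermt3 passed with every single replicate left out and under every other alternative of the interaction that was run, whereas Apoe, Cldn5, Pdgfrb, Dcn, Fcgr1 and C4b lost the call under at least 1 of them.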

How the results depend on the processing

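The counts of called genes among the 9 stayed at 0 in hair cells, in non-hair cells and for the difference of responses under every alternative that was run, the replicate block included. With a minimum of 1000 reads only 4 of the 9 were tested, and 4 were lower in control hair cells, against 9 in the other fits. The hair cell groups fitted alone could test only C1qb. Genes with few reads in hair cells limit these results: a log2 difference there depends on the offset, and the fold differences between populations are understated by it. Another scaling or offset turned the sign of values near 0: Cx3cr1 in hair cells became 0.02 (total reads) and 0.04 (offset 0.1), Ptprc in hair cells 0.01 and Tyrobp in non-hair cells 0.01 (total reads), and the difference of responses 0.15 for Aif1 and 0.01 for C1qa (offset 0.1). None of these was called.

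With each replicate left out in turn, the following log2 differences changed sign. In hair cells the range was -0.12 to 0.12 for Cx3cr1, -0.10 to 0.17 for C1qa, -0.07 to 0.18 for C1qc, -0.06 to 0.04 for Ptprc, -0.11 to 0.01 for Tyrobp and -0.02 to 0.10 for Fcer1g. In non-hair cells it was -0.03 to 0.39 for Csf1r, -0.25 to 0.33 for Cx3cr1, -0.04 to 0.12 for Aif1, -0.05 to 0.34 for C1qa, -0.18 to 0.26 for C1qb, -0.15 to 0.33 for C1qc, -0.19 to 0.16 for Tyrobp and -0.21 to 0.01 for Fcer1g. The difference of responses ranged from -0.13 to 0.29 for Csf1r, -0.34 to 0.24 for Cx3cr1, -0.09 to 0.08 for Aif1, -0.28 to 0.11 for C1qa, -0.05 to 0.40 for C1qb, -0.26 to 0.22 for C1qc and -0.20 to 0.15 for Tyrobp. The differences between control populations kept their sign and call for all 9 genes in every such fit. The cause of the sign changes was not tested.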
